A study of Aspergillus glaucus with 6 samples.

Results

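Of 8441 gene IDs listed for the salt-tolerant filamentous fungus Aspergillus glaucus CCHA, 42 formed a group with higher read counts in 2 high-salt mycelial cultures, 4 M NaCl at 84 h and 3 M NaCl at 36 h, than in the other 4 cultures of the series. The other cultures had 0 M, 1 M and 3 M NaCl at 84 h and 1 M NaCl at 36 h. Members were chosen by their read counts. The value used was the count scaled to the library total (CPM) plus 1, and genes absent from a file entered with a count of 0. The lower value of the 2 high-salt libraries had to be at least 11 and at least 2.5 times the highest value of the other 4. Because all 6 libraries took part in this choice, the height of the members in the 2 high-salt libraries is a description of how they were picked and carries no test. The same rule turned round, for genes lower in both high-salt libraries, picked 363 genes.

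All 6 libraries came from the single strain CCHA, with no genetic change given in the labels, and each condition has 1 library. The labels give each time as the length of treatment and describe the cells only as cells. Total counts ran from 16371771 to 18376857 per library, so 3 counts, the limit that a count of 0 allows, correspond to between 0.163 and 0.183 CPM. Since no condition was replicated, the spread between cultures is unknown and no p-value was computed. Intervals cover counting error only and leave out the spread between cultures. The reads carried no molecular identifiers and are not independent molecules, so the intervals may be too narrow even for counting error.

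High external salt draws water out of fungal cells and lets sodium in. In the model fungi Aspergillus nidulans and Saccharomyces cerevisiae, a stress-activated protein kinase cascade (the HOG pathway) responds by raising glycerol and other compatible solutes, while sodium pumps and antiporters in the membranes move sodium out of the cytosol. The files do not pair the IDs with gene names, and 0 of the 8441 IDs matched the RefSeq annotation of the strain CBS 516.65 (assembly Aspgl1, 11428 genes). None of the 42 members could therefore be assigned to these or other pathways, and the members are described by ID and by pattern. Spore and fruiting-body markers could not be checked for the same reason. In such bulk samples, more cells of a type and more RNA of a gene per cell cannot be told apart.

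The margin by which members met the rule was mostly small, with 4 exceptions. The ratio of the lower high-salt value to the highest other value had a median of 3.02. It lay between 2.5 and 3 for 19 members and between 3 and 5 for another 19. No member fell between 5 and 13, and 4 members exceeded 13. These 4 were AG04473.1 (35.8), AG02747.1 (16.3), AG04474.1 (14.6) and AG05384.1 (13.2). The members just inside the threshold were AG06543.1 (2.502) and AG07938.1 (2.505), and the genes just outside it were AG07175.1 (2.489) and AG07686.1 (2.487). A further 44 genes met the level minimum with a ratio from 2 to 2.5, these 2 among them, so the group has no natural edge on this side. Scaling the same rule by TMM factors, which correct for a few abundant genes taking up reads, gave 63 genes that include all 42. With that scaling AG05222.1 had a ratio of 5.43 and AG02612.1 of 5.02, so the empty stretch from 5 to 13 depends on the scaling.

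AG04473.1 had the largest margin and stood near the detection limit without added salt. Its level was 800 CPM in 4 M NaCl at 84 h and 293 CPM in 3 M at 36 h, against 0.231, 0.562 and 6.11 CPM in 0 M, 1 M and 3 M at 84 h and 0.811 CPM in 1 M at 36 h. Here and below, levels of single genes are TMM-scaled CPM, and log2 fold changes include a prior count of 2. The intervals are those of the TMM-scaled count ratio without this prior. At low counts the fold change therefore lies nearer 0 than the ratio that its interval bounds. The gene had 14369 counts in the 4 M library, against 4 in the 0 M library, and the log2 fold change was 11.18 (exact 95% counting interval 10.40 to 13.63). The 3 M library at 84 h lay above the 3 other low libraries of this gene and far below both high-salt libraries. Low libraries are, here and below, those outside the high-salt pair of the rule. The 3 M library at 84 h is one of them although its salt equals that of 3 M at 36 h.

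AG04474.1 carries the following ID number and had the same 3 libraries at the top. It stood at 1137 CPM in 4 M at 84 h and 469 CPM in 3 M at 36 h, against 0.925, 0.899 and 26.7 CPM in 0 M, 1 M and 3 M at 84 h and 2.14 CPM in 1 M at 36 h. At 84 h its log2 fold change in 4 M against 0 M was 10.10 (9.56 to 11.07), and at 36 h that in 3 M against 1 M was 7.70 (7.31 to 8.28). These were the only members with consecutive IDs, 2 of 42. Beside them, 81 non-members of the 8441 IDs listed stand 1 number from a member. AG04475.1, on one side of the pair, had a log2 fold change of 1.14 between 4 M and 0 M at 84 h, and of 0.88 between 3 M and 1 M at 36 h. AG04472.1, on the other side, had -0.05 and -1.18 in these comparisons, at no more than 3.65 CPM in any library. These neighbours were named after their values were seen.

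AG02747.1 and AG05384.1 differed from that pair in being higher in 3 M at 36 h than in 4 M at 84 h. AG02747.1 stood at 196 CPM in 4 M at 84 h and 287 CPM in 3 M at 36 h, against 4.28, 4.38 and 10.5 CPM in 0 M, 1 M and 3 M at 84 h and 4.46 CPM in 1 M at 36 h. The 0 M library and both 1 M libraries of this gene were nearly level with each other. AG05384.1 stood at 222 CPM in 4 M at 84 h and 311 CPM in 3 M at 36 h, against 11.7, 5.84 and 15.1 CPM in 0 M, 1 M and 3 M at 84 h and 7.18 CPM in 1 M at 36 h. Both genes had some reads in every library, with at least 74 counts each.

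**Figure D1:**
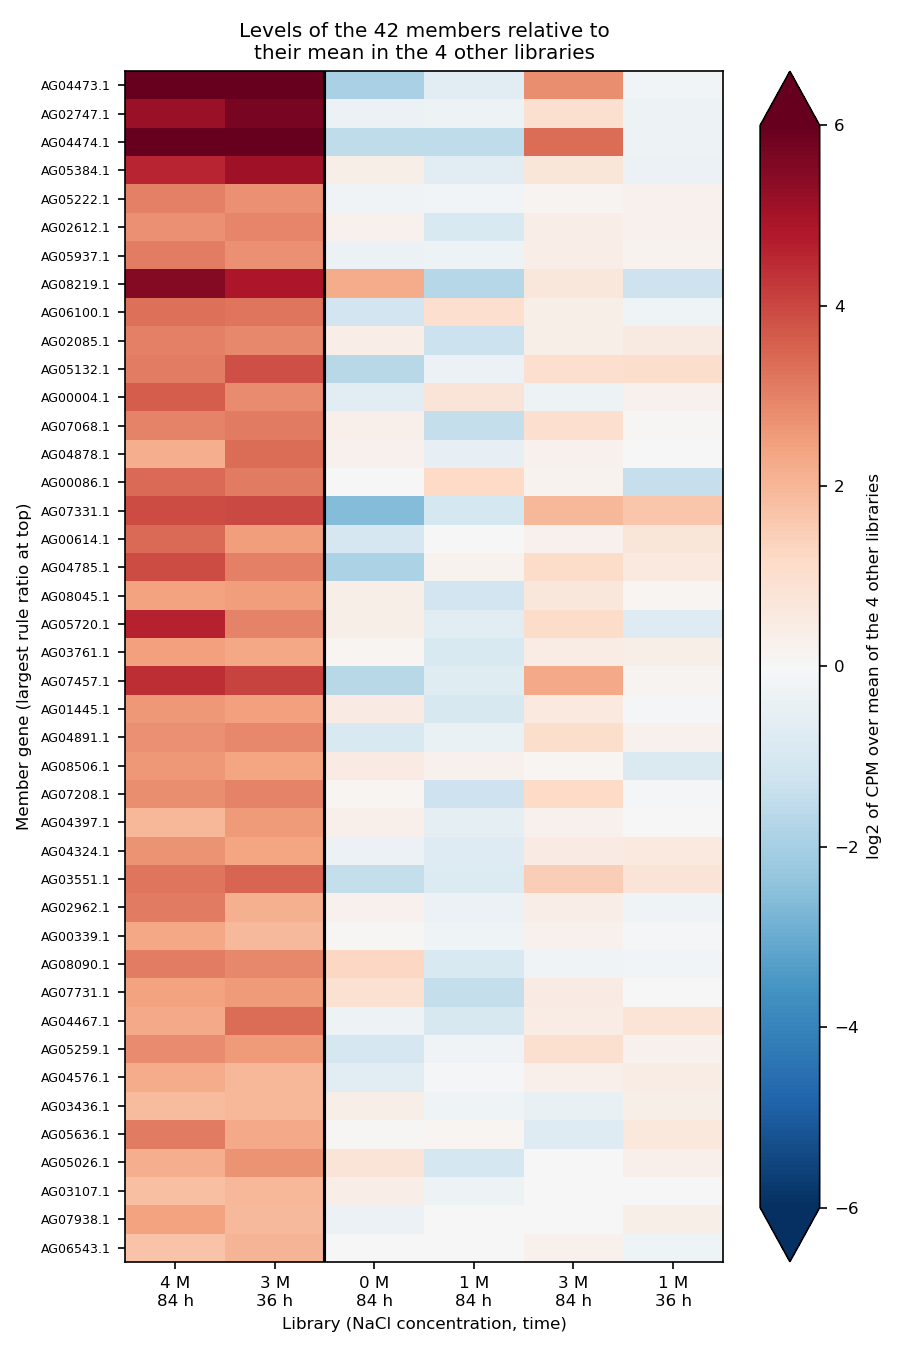
Levels of the 42 members (rows, largest rule ratio at the top) in the 6 libraries (columns, NaCl concentration and time, with the 2 high-salt libraries left of the black line), as log2 of TMM-scaled CPM over the member's own mean (of log2 CPM) in the 4 other libraries. Colours are limited to 6 on either side of 0, which AG04473.1 and AG04474.1 exceed, and the 2 left columns are high in every row because the rule chose the rows that way.

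The members' share of all reads was 3.55% in 4 M at 84 h and 3.65% in 3 M at 36 h, against 0.607%, 0.311% and 0.895% in 0 M, 1 M and 3 M at 84 h and 0.661% in 1 M at 36 h. AG08045.1 supplied 42.4% of the members' reads in 4 M at 84 h and 40.2% in 3 M at 36 h, and without it the share was 2.04% and 2.18%. Read shares are not per length, since gene lengths were not used here, so they do not compare expression between genes.

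AG08045.1 ranked second by read count among all genes in both high-salt libraries. It also ranked 9 in both 0 M and 3 M at 84 h. In 1 M it ranked 24 at 36 h and 100 at 84 h. It stood at 15072 CPM in 4 M at 84 h and 16245 CPM in 3 M at 36 h, against 3629, 1278 and 4535 CPM in 0 M, 1 M and 3 M at 84 h and 3108 CPM in 1 M at 36 h. At 84 h the gene was thus lowest in 1 M, not in 0 M. Its log2 fold change in 4 M against 0 M at 84 h was 2.05 (2.04 to 2.07), and that in 3 M against 1 M at 36 h was 2.39 (2.37 to 2.40).

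AG05132.1 followed the salt concentration at 84 h step by step. Its level at 84 h was 194, 482, 1245 and 5169 CPM in 0 M, 1 M, 3 M and 4 M, and at 36 h it was 9158 CPM in 3 M and 1283 CPM in 1 M. The 1 M library at 36 h lay close to the 3 M library at 84 h for this gene. AG02612.1 and AG07068.1, which complete the 4 members with the highest mean CPM over the 2 high-salt libraries, had the pattern of AG08045.1, with the lowest level in 1 M at 84 h. AG02612.1 stood at 2866 CPM in 4 M at 84 h and 3313 CPM in 3 M at 36 h, against 516, 227 and 570 CPM in 0 M, 1 M and 3 M at 84 h and 517 CPM in 1 M at 36 h. AG07068.1 stood at 1649 CPM in 4 M at 84 h and 1859 CPM in 3 M at 36 h, against 267, 80.0 and 430 CPM in 0 M, 1 M and 3 M at 84 h and 221 CPM in 1 M at 36 h.

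**Figure D2:**
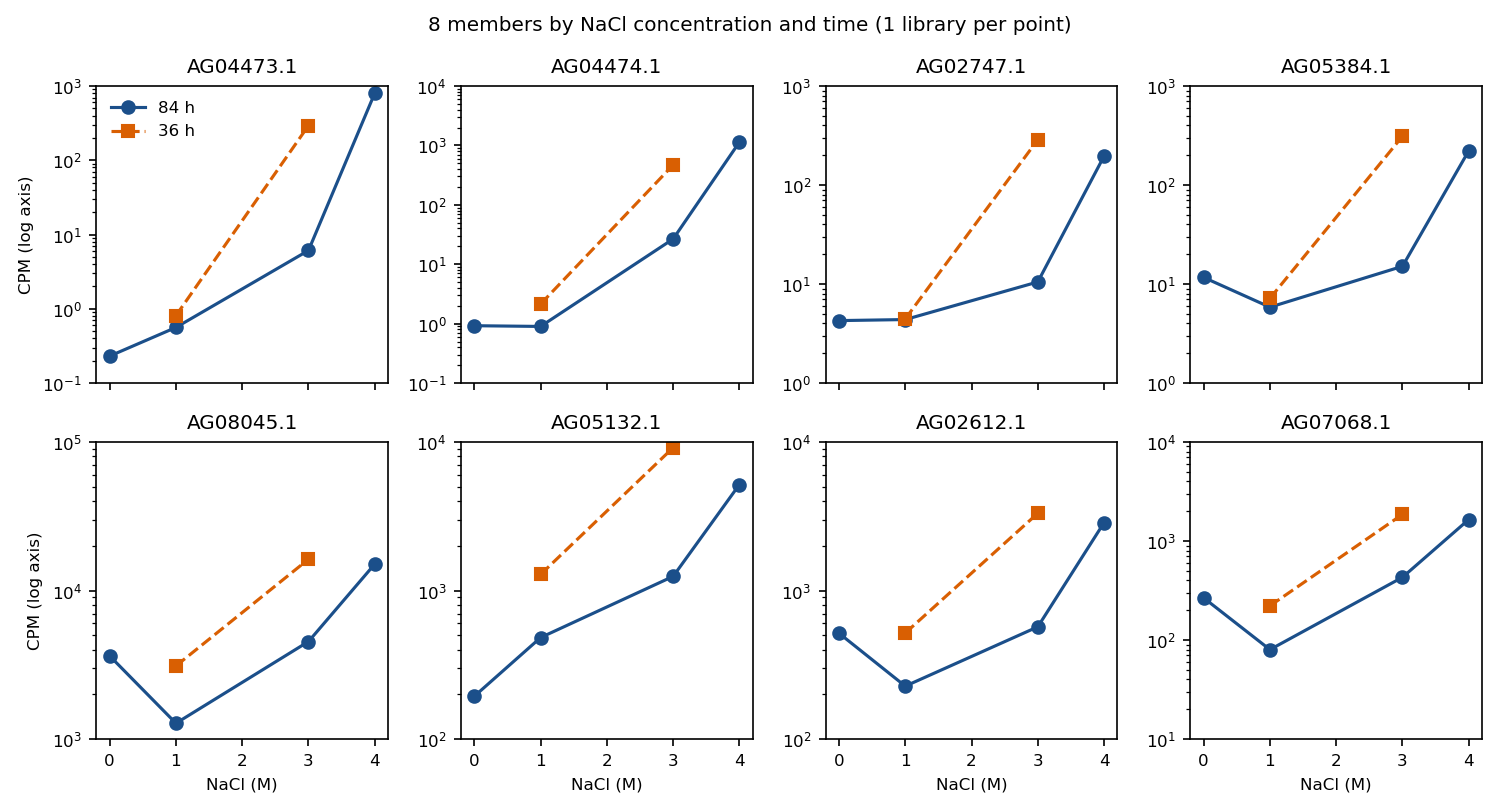
TMM-scaled CPM (log axis, with its own range in each panel) against NaCl concentration for the 4 members with the largest rule ratio (top) and the 4 with the highest mean CPM in the high-salt libraries (bottom), 1 library per point. Circles and solid lines are 84 h and squares with dashed lines are 36 h, and in each panel the 3 M point at 36 h lies above the 3 M point at 84 h, as the rule requires.

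Over all 42 members, the median level was 144 CPM in 4 M at 84 h (range 21.2 to 15072) and 142 CPM in 3 M at 36 h (15.7 to 16245). It was 18.6, 11.3 and 24.4 CPM in 0 M, 1 M and 3 M at 84 h and 16.5 CPM in 1 M at 36 h. Every member had reads in every library, the fewest being 3 counts for AG08219.1 in 1 M at 84 h. AG08219.1, named after its values were seen, had the lowest level of all members in 3 M at 36 h. It stood at 24.8 CPM in 4 M at 84 h and 15.7 CPM in 3 M at 36 h, against 2.54, 0.169 and 0.880 CPM in 0 M, 1 M and 3 M at 84 h and 0.232 CPM in 1 M at 36 h.

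The size of the difference varied widely among members. By the way they were chosen, all 42 were at least 2-fold apart in each of the 4 comparisons that the rule used. In 4 M against 0 M at 84 h, where 11.3% of the 6745 genes tested were at least 2-fold higher, the members' log2 fold changes had a median of 2.93 (range 1.41 to 11.18), and 34 passed 4-fold, against 3.19% of all genes tested. In 3 M against 1 M at 36 h (13.1% of all genes at least 2-fold higher) the median was 2.51 (1.54 to 8.31), and 34 passed 4-fold, against 2.08%. In 4 M against 3 M at 84 h (13.9% at least 2-fold higher) the median was 2.27 (1.43 to 7.01), with 27 past 4-fold, against 2.39%. In 3 M, 84 h against 36 h (14.9% at least 2-fold lower) gave a median of -2.22, with 25 members more than 4-fold lower at 84 h, against 3.42%. A gene counted as tested if its CPM reached 10 in any library, and all 42 members did.

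The rule did not fix which of the 2 high-salt libraries was higher, and the members were divided on this. In 4 M at 84 h against 3 M at 36 h, their median log2 fold change was 0.15, beside 0.03 over all genes, with 24 members above 0 and 18 below. For 37 members the difference was less than 2-fold, as for 87.6% of all genes. Past 2-fold, 3 members were higher in 4 M at 84 h, against 5.38% of all genes, and 2 were lower, against 7.01%. With TMM scaling these shares of 42 (7.14% and 4.76%) lie near the background. With scaling by total counts, which the rule used and which shifts the median of all genes by 0.14 here, 7 members were higher and 1 lower. How many of all genes passed 2-fold with that scaling was not counted, so these 2 numbers have no background.

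AG05720.1 was the member furthest above in 4 M at 84 h. It stood at 441 CPM in 4 M at 84 h and 141 CPM in 3 M at 36 h, a log2 fold change of 1.64 (1.58 to 1.71), against 22.8, 11.1 and 38.8 CPM in 0 M, 1 M and 3 M at 84 h and 10.6 CPM in 1 M at 36 h. AG04473.1 and AG04474.1 came next, at 1.45 and 1.28, each beyond counting error. AG04878.1 was furthest the other way. It stood at 990 CPM in 4 M at 84 h and 2211 CPM in 3 M at 36 h, a log2 fold change of -1.16 (-1.18 to -1.13), against 258, 152 and 261 CPM in 0 M, 1 M and 3 M at 84 h and 210.5 CPM in 1 M at 36 h. AG04467.1 followed at -1.09 (-1.15 to -1.03), from 190 CPM in 4 M at 84 h and 406 CPM in 3 M at 36 h, and AG05132.1 at -0.83 (-0.84 to -0.81).

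**Figure D3:**
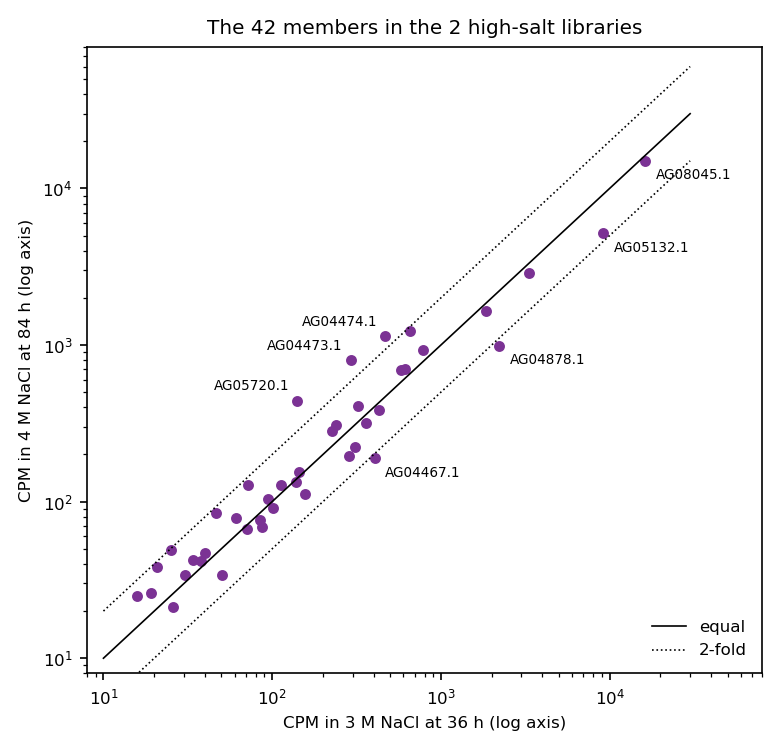
TMM-scaled CPM of the 42 members in 4 M NaCl at 84 h (vertical, log axis) against 3 M NaCl at 36 h (horizontal, log axis), 1 point per gene. The solid line marks equal levels and the dotted lines 2-fold differences, and 37 points lie between the dotted lines.

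Nor did the rule order the other 4 libraries, since it used only the highest of them. The 3 M library at 84 h was the highest of the 4 for 22 members (23.8% of all genes had it highest), 1 M at 36 h for 10 (19.6%), 0 M at 84 h for 7 (27.9%) and 1 M at 84 h for 3 (28.8%). The lowest of the 4 was 1 M at 84 h for 20 members (30.5% of all genes had it lowest), 0 M at 84 h for 16 (22.3%), 1 M at 36 h for 4 (24.8%) and 3 M at 84 h for 2 (22.3%). At 84 h, 28 members (66.7%, against 30.4% of all genes) were higher in 3 M than in both 0 M and 1 M, and all 42 were higher still in 4 M by the rule.

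In 3 M against 1 M at 84 h the members' median log2 fold change was 1.20, beside 0.02 over all genes. At least 2-fold higher in 3 M were 23 members (54.8%), against 9.52% of all genes, and 1 member was at least 2-fold lower, against 10.5%. In 3 M against 0 M at 84 h the median was 0.37, beside -0.01 over all genes. There 13 members (31.0%) were at least 2-fold higher, against 8.50% of all genes, and 2 were at least 2-fold lower, against 10.3%. These 2 comparisons share the 3 M library, and comparisons with 1 M share that library, so their values are not independent of each other. The members were chosen as genes that vary across these libraries, and they were not set against other variable genes.

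Relative to the other low libraries, AG04474.1, AG04473.1 and AG07457.1 stood highest in 3 M at 84 h, at 12.4, 7.54 and 4.26 times the highest of the other 3. AG07457.1 stood at 406 CPM in 4 M at 84 h and 322 CPM in 3 M at 36 h, against 5.95, 11.5 and 91.1 CPM in 0 M, 1 M and 3 M at 84 h and 21.4 CPM in 1 M at 36 h. At 84 h its level was thus higher at each step of salt. Of the 42 members, 13 had the order 0 M, 1 M, 3 M, 4 M from low to high at 84 h. In 8 of them both lower steps lay beyond counting error, but the share of all genes that meets this was not computed. The order 0 M, 1 M, 3 M held for 31.0% of members and 14.4% of all genes. A further 15 members (35.7%, against 16% of all genes) had 1 M lowest, then 0 M, then 3 M.

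AG07331.1, named after its values were seen, spanned the widest range of the 13 apart from AG04473.1 in 4 M against 0 M at 84 h. Its level at 84 h was 1.45, 4.21, 35.3 and 133 CPM in 0 M, 1 M, 3 M and 4 M, and at 36 h it was 138 CPM in 3 M and 28.5 CPM in 1 M. The 4 M and 3 M high-salt libraries of this gene did not differ beyond counting error (log2 fold change -0.05, interval -0.14 to 0.03).

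Between 1 M and 0 M at 84 h the members went both ways. The median log2 fold change was -0.26, beside -0.04 over all genes, with 7 members at least 2-fold higher (16.7%, against 11.9% of all genes) and 12 at least 2-fold lower (28.6%, against 12.5%). In 1 M, 84 h against 36 h gave a median of -0.59, beside 0.01 over all genes. There 14 members (33.3%) were at least 2-fold lower at 84 h, against 10.6% of all genes, and 3 were at least 2-fold higher, against 11.7%. AG08045.1 was among the lower ones in both comparisons, at -1.51 and -1.28.

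**Figure D4:**
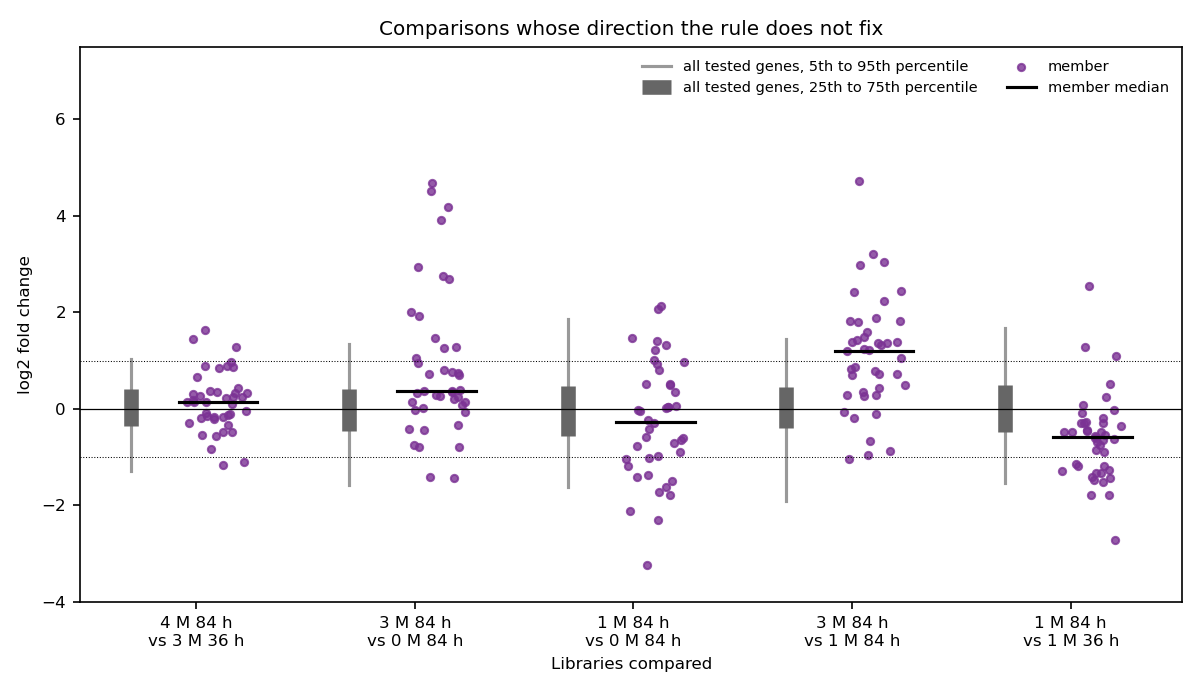
Log2 fold changes of the 42 members (points, with their median as a black line) in the 5 comparisons whose direction the rule does not fix, beside the 25th to 75th (thick grey bar) and 5th to 95th percentiles (thin grey line) of the 6745 genes tested. Dotted lines mark 2-fold. The median of the members is 1.20 in 3 M against 1 M at 84 h and 0.15 in 4 M at 84 h against 3 M at 36 h.

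Some members had nearly the same profile over the 6 libraries. The rule makes all members high in the same 2 libraries, so part of this likeness is built in. Pairs of other genes were not compared. After each gene was centred on its own mean of log2 CPM, AG01445.1 and AG08045.1 differed by at most 0.22 in any library, AG07068.1 and AG07208.1 by at most 0.23, and AG05222.1 and AG05937.1 by at most 0.24. These 3 were the most alike of all pairs of members, and AG01445.1, AG07208.1 and AG05937.1 are named here after their values were seen. For AG01445.1, with 63 counts in 1 M at 84 h, a difference of 0.22 is finer than counting error. Its log2 fold change in 1 M against 0 M at 84 h had an interval of -1.88 to -1.01. AG05222.1 stood at 282 CPM in 4 M at 84 h and 228 CPM in 3 M at 36 h, against 29.5, 30.3 and 38.5 CPM in 0 M, 1 M and 3 M at 84 h and 41.1 CPM in 1 M at 36 h. AG05937.1 stood at 306 CPM in 4 M at 84 h and 240 CPM in 3 M at 36 h, against 28.6, 28.9 and 47.7 CPM in 0 M, 1 M and 3 M at 84 h and 42.2 CPM in 1 M at 36 h. Without sequences, near-identical copies that share reads could not be recognised.

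The non-member IDs next to members were mostly not raised with them, as was true of all genes. Among the non-member IDs within 2 numbers of a member, 130 were tested, and 6 (4.62%) passed 2-fold upwards in 4 M against 0 M at 84 h as well as in 3 M against 1 M at 36 h. Over all genes tested, 5.01% did. That share includes the 42 members, which all pass by the rule. The neighbours leave members out, AG04473.1 and AG04474.1 among them, so the 2 shares are not of like sets. The 6 were AG04325.1, AG04466.1, AG04880.1, AG05223.1, AG05257.1 and AG07459.1, listed after their values were seen. AG05223.1, next to AG05222.1, stood at 230 CPM in 4 M at 84 h and 197 CPM in 3 M at 36 h, against 3.76, 24.3 and 141 CPM in 0 M, 1 M and 3 M at 84 h and 40.0 CPM in 1 M at 36 h. It missed the rule through the 3 M library at 84 h. Whether consecutive IDs are neighbours on a chromosome was not analysed here.

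The 3 M label stands on both sides of the rule, at 36 h among the high-salt libraries and at 84 h among the others. Whether the labels of these libraries are as prepared was not tested. With the 3 M library at 84 h left out of the rule, 76 genes met it, and with 0 M at 84 h left out 109 did. With 4 M at 84 h as the only high-salt library 122 genes met it, and with 3 M at 36 h as the only one 61 did. By construction each of these lists contains the 42.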

How the data were processed

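RNA from mycelium of 6 cultures was sequenced, 1 library per condition. The authors deposited raw read counts per gene ID, 1 file per library, with no normalization. The submitters' processing notes name TopHat2 2.0.8b and HTSeq 0.5.4p2. Strand setting, annotation, genome build and filters were not given in the sources used here, so overlapping and antisense genes cannot be told apart. Groups come from the labels' treatment field.

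TMM factors from all 6 libraries were computed with edgeR 4.0.16 (R 4.3.3), and log2 fold changes used a prior count of 2. Genes whose CPM reached 10 in any library (6745 of 8441) entered all 9 comparisons. The rule for members used library totals. Single ratios have exact 95% Clopper-Pearson counting intervals (SciPy 1.17.1), taken without the prior count, and no p-value was computed. Scripts were tested on simulated data.

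The members, the comparisons and the alternatives were chosen with earlier results of these data known. Named members are the 6 with the largest rule ratio, the 4 with the highest mean CPM in the high-salt libraries, the 3 furthest each way in 4 M at 84 h against 3 M at 36 h, the 3 highest in 3 M at 84 h relative to the other low libraries, members in runs of 3 or more consecutive IDs (there were none), and the 2 genes nearest the ratio threshold on either side. Other IDs were chosen after their values were seen. Alternatives were other scalings, prior counts, filters and rule settings.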

Additional observations from a re-analysis of the deposited data

Results flagged for a closer look

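The following members, named because of these values, had a difference in one direction under one condition and in the opposite direction, beyond counting error, under the other. With 1 library per condition none of these differences between conditions was tested, and the rule itself fixed the direction at 36 h and in 3 M. How many of all genes lay beyond counting error in these directions was not counted. By sign alone, members took these directions less often than all genes did.

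In 3 M against 1 M NaCl, all members were higher in 3 M at 36 h, but 4 were lower in 3 M at 84 h beyond counting error. At 84 h 35 of the 42 members lay above 0, where 51.2% of all genes did. AG00004.1 had a log2 fold change of -1.05 at 84 h (interval -1.34 to -0.78) and 2.57 at 36 h. AG00086.1 had -0.96 at 84 h and 4.50 at 36 h. AG05636.1 had -0.87 at 84 h and 1.63 at 36 h, and AG06100.1 had -0.67 at 84 h and 3.47 at 36 h.

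In 84 h against 36 h, all members were lower at 84 h in 3 M, but 5 were higher at 84 h in 1 M beyond counting error. In 1 M 6 of the 42 lay above 0, where 50.4% of all genes did. AG00086.1 had a log2 fold change of 2.54 in 1 M (interval 2.42 to 2.67) and -2.92 in 3 M. Its level was 202 CPM in 1 M at 84 h and 34.6 CPM in 1 M at 36 h. AG06100.1 had 1.28 in 1 M and -2.86 in 3 M, and AG08506.1 had 1.09 in 1 M and -2.19 in 3 M. AG00004.1 had 0.51 in 1 M and -3.10 in 3 M, and AG06543.1 had 0.25 in 1 M (interval 0.03 to 0.47) and -1.76 in 3 M. AG00086.1, AG06100.1 and AG00004.1 thus appear under both contrasts, and in each the 1 M library at 84 h is common to the opposite values.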

How the results depend on the processing

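The number of members was most sensitive to the ratio threshold and to which libraries took part. A ratio of at least 2 gave 86 genes and of at least 4 gave 9. Leaving out 0 M at 84 h gave 109 and leaving out 3 M at 84 h gave 76, while 4 M at 84 h as the only high-salt library gave 122. Within 1.5 times of 42 were TMM and DESeq2 scaling (63 each), 0.5 added to the CPM (45), a lower value of at least 6 (43) or 51 (31), leaving out 1 M at 36 h (60) or at 84 h (46), 3 M at 36 h as the only high-salt library (61), and a counting interval of the ratio wholly above 2.5 (30). With scaling by total counts the median log2 fold change was -2.005 in 3 M for 84 h against 36 h and 0.29 in 4 M at 84 h against 3 M at 36 h, where 7 members were then at least 2-fold higher and 1 lower. In 3 M against 1 M at 84 h, 0 members were at least 2-fold lower with total counts or with an interval beyond 2-fold. In 3 M against 0 M at 84 h, 1 was lower with a CPM of at least 10 in either library or an interval beyond 2-fold. With a ratio of at least 2, 4 of the 86 genes had a neighbouring ID in the group. The share of all genes next to that group was not computed. With a ratio of at least 4 the members' share of counts was 0.597% in 4 M at 84 h and 0.479% in 3 M at 36 h, against 0.0635%, 0.0324% and 0.0773% in 0 M, 1 M and 3 M at 84 h and 0.0639% in 1 M at 36 h. Without AG08045.1 it was 2.04% and 2.18%, against 0.223%, 0.185%, 0.419% and 0.345% in the same order. A window of 1 ID number, chosen after seeing the data like the share without AG08045.1, left 3 raised neighbours, and requiring both steps beyond counting error left 8 stepwise members. Of the other planned settings, none moved a count by over 1.5 times or turned a median. The cause of these changes was not tested. No paired analysis was possible because each condition has 1 library. Depth limits mainly AG04473.1, AG04474.1, AG03551.1 and AG08219.1, which fell below 1 CPM in some libraries.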
